A study of Mus musculus with 10 samples.

Results

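The haem synthesis enzymes described here are the products of Alas1, Alas2, Alad, Uros, Urod, Cpox, Ppox and Fech. These 8 genes were taken by symbol from the 55367 genes of the deposited table, without reference to their values, and all 8 had enough counts to be tested. The RNA came from mouse marrow (BMMC in the labels), with ribosomal RNA removed by RNase H. Of the 10 libraries, 5 are from mice on regular water (water 1 to 5) and 5 from mice whose water held 1% α-ketoglutarate, α-KG for short (α-KG 1 to 5), and equal numbers pair nothing. The sources used here do not give genotype, sex, age or length of treatment, nor whether each library came from its own mouse, and the p-values below therefore speak only of variation among these libraries, which may be technical.

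Haem is an iron-bearing ring that most cells need for cytochromes and that maturing red cells make in large amounts for haemoglobin. Its synthesis starts in the mitochondrion, where 5-aminolevulinate synthase joins glycine to succinyl-CoA, a product of α-KG dehydrogenase. The intermediates then pass through the cytosol, and the last enzymes lie in the mitochondrion, where ferrochelatase inserts the iron. The first enzyme exists in a pair of forms from separate genes: Alas1 serves all tissues and is repressed by haem, whereas Alas2 is made in the red cell lineage. Each of the remaining steps uses a single gene in all tissues, and 1 cytosolic step between Alad and Uros is not analysed here.

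Alas2 carries a control element in its messenger RNA that the other members lack by the same search. An iron-responsive element is a hairpin bound by iron regulatory proteins, which hold back translation when iron is scarce. The pattern searched was a C, 5 bases, CAGTGN and 5 bases that pair with the first 5. It occurred in the annotated 5′ UTR of Alas2 and in 0.148% of the 20883 genes with such a region, and in 1 of the 8 members. The 30 bases around it are shown because this element acts on translation, which these libraries did not measure. They lie on the X chromosome in the GENCODE M21 transcripts of build GRCm38, and the capitals mark the hairpin loop.
Alas2 5′ UTR element: gttcgtcctCAGTGCagggcaacaggactt

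The start regions shown next are the 3 that hold a motif of GATA factors, which act in the red cell lineage, and 1 of Alas1 for contrast with its paralogue Alas2. The windows hold 250 bases before and 50 after a RefSeq start site in build GRCm38.p6, and 10 such windows were found for 7 of the members. Capitals mark matches on either strand to the letters of the GATA factor motif, which are GATAA or GATAG with an A or a T before them. Alas2 is shown at chrX:150547167-150547466 (+ strand), with a match at positions -86 to -81 from the start. Cpox is shown at chr16:58669958-58670257 (+ strand), with a match at -91 to -86, a second at -86 to -81 that overlaps it by 1 base, and another at 5 to 10. Uros has a second, downstream start, shown at chr7:133702451-133702750 (- strand), with matches at -205 to -200 and -68 to -63. Alas1 is shown at chr9:106247681-106247980 (- strand), and it had 0 matches in this window and in its other one. The windows of Alad, Urod and Ppox and the first of Uros, not shown, also had 0.
Alas2: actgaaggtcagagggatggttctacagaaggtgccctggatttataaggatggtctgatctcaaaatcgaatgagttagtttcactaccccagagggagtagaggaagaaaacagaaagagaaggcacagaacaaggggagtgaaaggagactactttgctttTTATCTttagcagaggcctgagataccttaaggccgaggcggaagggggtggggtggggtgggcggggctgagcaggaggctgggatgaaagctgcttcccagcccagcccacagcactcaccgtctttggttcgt
Cpox: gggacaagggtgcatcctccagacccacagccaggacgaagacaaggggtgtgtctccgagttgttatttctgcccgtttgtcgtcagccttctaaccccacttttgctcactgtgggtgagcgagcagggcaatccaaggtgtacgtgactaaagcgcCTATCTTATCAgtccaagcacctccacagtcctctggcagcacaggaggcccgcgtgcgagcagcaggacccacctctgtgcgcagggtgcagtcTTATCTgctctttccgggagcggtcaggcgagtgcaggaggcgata
Uros, second start: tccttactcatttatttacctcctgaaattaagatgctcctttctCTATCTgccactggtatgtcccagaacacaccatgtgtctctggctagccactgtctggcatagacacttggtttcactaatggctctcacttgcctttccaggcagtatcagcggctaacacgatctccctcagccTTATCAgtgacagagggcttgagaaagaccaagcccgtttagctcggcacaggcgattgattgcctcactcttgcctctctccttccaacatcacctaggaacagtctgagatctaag
Alas1: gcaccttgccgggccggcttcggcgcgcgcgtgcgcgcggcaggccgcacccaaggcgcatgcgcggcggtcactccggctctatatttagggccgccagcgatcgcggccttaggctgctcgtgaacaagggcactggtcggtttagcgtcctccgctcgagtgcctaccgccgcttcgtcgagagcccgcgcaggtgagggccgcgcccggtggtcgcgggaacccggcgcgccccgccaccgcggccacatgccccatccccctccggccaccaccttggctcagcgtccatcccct

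Such letters were found in 3 of the 10 windows of the members and in 29.8% of all 32851 windows of that length, so their presence here was near the background. Among members with them, Pearson's r with the mean of the red cell markers described further on was 0.989 for Uros, 0.978 for Cpox and 0.572 for Alas2. Among members without them, it was 0.952 for Alad, 0.988 for Urod, 0.972 for Ppox and 0.149 for Alas1. The counts are per gene, and reads from alternative starts such as those of Uros cannot be told apart.

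Library totals ran from 16938406 to 22490088 counts in water and from 14291332 to 21489336 in α-KG, and the 8 members together took 0.158% to 0.560% of the counts, least in α-KG 1. The red cell lineage was present in every library: 15 of 16 listed erythroid markers were measured, and their summed level ran from 8409 to 16021 CPM (counts scaled to a common library size of 1e+06 with TMM factors) in water and from 1495 to 13842 CPM in α-KG. Each of the 15 was below 0 in log2 fold change (median -0.76), and 0 passed the test (edgeR), with 2 at an unadjusted p under 0.05. Not all red cell transcripts went this way: the 4 globins, described further on, were at 0.36 to 0.54, with 0 called. In α-KG 3 the globin sum was the highest of all libraries, at 117886 CPM, where the marker sum was 7331 CPM. The marker list therefore does not give the direction of every red cell transcript. Monocyte and macrophage markers rose, with 7 of 8 and 4 of 8 called higher. Their summed levels were 341 to 459 against 493 to 1063 CPM and 39.8 to 80.4 against 78.5 to 126 CPM (water against α-KG). T and NK cell markers had 2 of 8 called higher, with sums of 15.8 to 23.8 against 19.3 to 40.9 CPM. Those calls were lost without water 1, water 2, water 4 or α-KG 4 and with the protein-coding share of counts as a covariate, when 0 genes in all were called (edgeR). With the erythroid marker mean as a covariate, 3 monocyte, 2 macrophage and 0 T and NK markers were called. All 10 cell cycle genes were below 0 in log2 fold change, with a median of -0.82 and sums of 2945 to 3962 against 836 to 3032 CPM, and 0 were called (edgeR, 10 at an unadjusted p under 0.05). B cell markers were highest in α-KG 1, at 439 CPM against 79.8 to 170 CPM in the other libraries. In whole marrow, fewer cells of a type and less RNA per cell cannot be told apart, and the part of the monocyte, macrophage, T and NK, B cell and cell cycle shifts in the levels below was not tested. The make-up of the RNA also differed: Rn7s transcripts (signal recognition particle RNA) made up 7.56% to 24.2% of counts in water and 23.97% to 31.0% in α-KG, and protein-coding genes made up 42.2% to 72.2% and 37.9% to 50.1%.

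Each gene of the pair for the first enzyme differed between the groups by less than its spread between libraries. Alas2 (chromosome X, 150547375 to 150570638) was at 1701, 2083, 884, 1943 and 1212 CPM in water 1 to 5 and at 736, 1716, 2694, 1273 and 2158 CPM in α-KG 1 to 5. The α-KG group held both the lowest and the highest value, in α-KG 1 and α-KG 3, and the groups overlapped. The means were 1565 ± 505 and 1715.5 ± 760 CPM (SD, n = 5), with a log2 fold change of 0.13 ± 0.37 SE (edgeR, adjusted p = 0.832) and a 95% interval of -0.66 to 0.93, so changes within that range were not resolved. Alas1 (chromosome 9, 106233455 to 106248654) was at 38.0, 36.3, 40.6, 29.95 and 23.6 CPM in water and at 29.98, 38.4, 38.5, 25.8 and 45.05 CPM in α-KG. Its levels had the narrowest range of the 8 members, and neither group stood apart. Its log2 fold change was 0.08 ± 0.18 SE (edgeR, adjusted p = 0.801), with a 95% interval of -0.31 to 0.46. The ratio of Alas2 to Alas1 within a library needs no scaling between libraries, and its log2 averaged 5.49 in both groups, with an SD of 0.62 in water and 0.55 in α-KG (n = 5 each). An exact two-sided permutation test of that difference gave p = 0.984, where 0.00794 is the smallest possible.

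The cytosolic enzymes had lower means in α-KG, where libraries 1, 3 and 4 were low and 2 and 5 were not, and none of these differences passed the test. Alad encodes the enzyme that joins a pair of aminolevulinate molecules into porphobilinogen (chromosome 4, 62509169 to 62519918). It was at 127, 125, 75.1, 127 and 141 CPM in water and at 16.4, 101, 32.7, 45.8 and 93.8 CPM in α-KG. α-KG 1, 3 and 4 lay below every water library, whereas α-KG 2 and 5 lay within the water range, and water 3 was the lowest of its group. The group means of Alad were 119 ± 25.4 and 58.0 ± 37.6 CPM (SD, n = 5). It had the largest difference of the 8, with a log2 fold change of -1.04 ± 0.41 SE (edgeR, adjusted p = 0.138, unadjusted p = 0.0276).

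Uros, whose enzyme closes the tetrapyrrole ring (chromosome 7, 133686243 to 133710072), was at 83.4, 108, 45.9, 92.3 and 75.6 CPM in water and at 6.69, 81.3, 23.4, 40.0 and 82.0 CPM in α-KG. The same α-KG libraries, 1, 3 and 4, were below all water libraries, and α-KG 1 was furthest down. The log2 fold change was -0.80 ± 0.52 SE (edgeR, adjusted p = 0.319), with a 95% interval of -1.92 to 0.33. Urod, which trims the side chains of the ring (chromosome 4, 116989965 to 116994413), was at 272, 327, 139, 308 and 232 CPM in water and at 27.0, 242, 131, 140 and 295 CPM in α-KG. Here α-KG 1 and 3 were below the water range and α-KG 4 only just above its lowest value. The log2 fold change was -0.61 ± 0.48 SE (edgeR, adjusted p = 0.404), with a 95% interval of -1.65 to 0.42.

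Of the mitochondrial enzymes that end the pathway, Cpox and Ppox followed the cytosolic ones and Fech less so. Cpox encodes the oxidase that makes protoporphyrinogen (chromosome 16, 58670292 to 58717636). It was at 493, 616, 371, 570 and 631 CPM in water and at 79.9, 562, 184, 299 and 492 CPM in α-KG. α-KG 1, 3 and 4 were again under the water range, and the log2 fold change was -0.73 ± 0.42 SE (edgeR, adjusted p = 0.271). Ppox, which oxidises that product to protoporphyrin (chromosome 1, 171275990 to 171281186), ran from 236 to 376 CPM in water and from 41.7 to 358 CPM in α-KG, with a log2 fold change of -0.54 ± 0.45 SE (edgeR, adjusted p = 0.443). Fech encodes ferrochelatase (chromosome 18, 64452914 to 64490251). It was at 935, 1157, 563, 1075 and 811 CPM in water and at 230, 910, 927, 637 and 954 CPM in α-KG. Only α-KG 1 lay below the water libraries, and α-KG 3, low for Alad, Uros, Urod, Cpox and Ppox, was within their range. The log2 fold change of Fech was -0.31 ± 0.36 SE (edgeR, adjusted p = 0.577), with a 95% interval of -1.09 to 0.46.

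**Figure D1:**
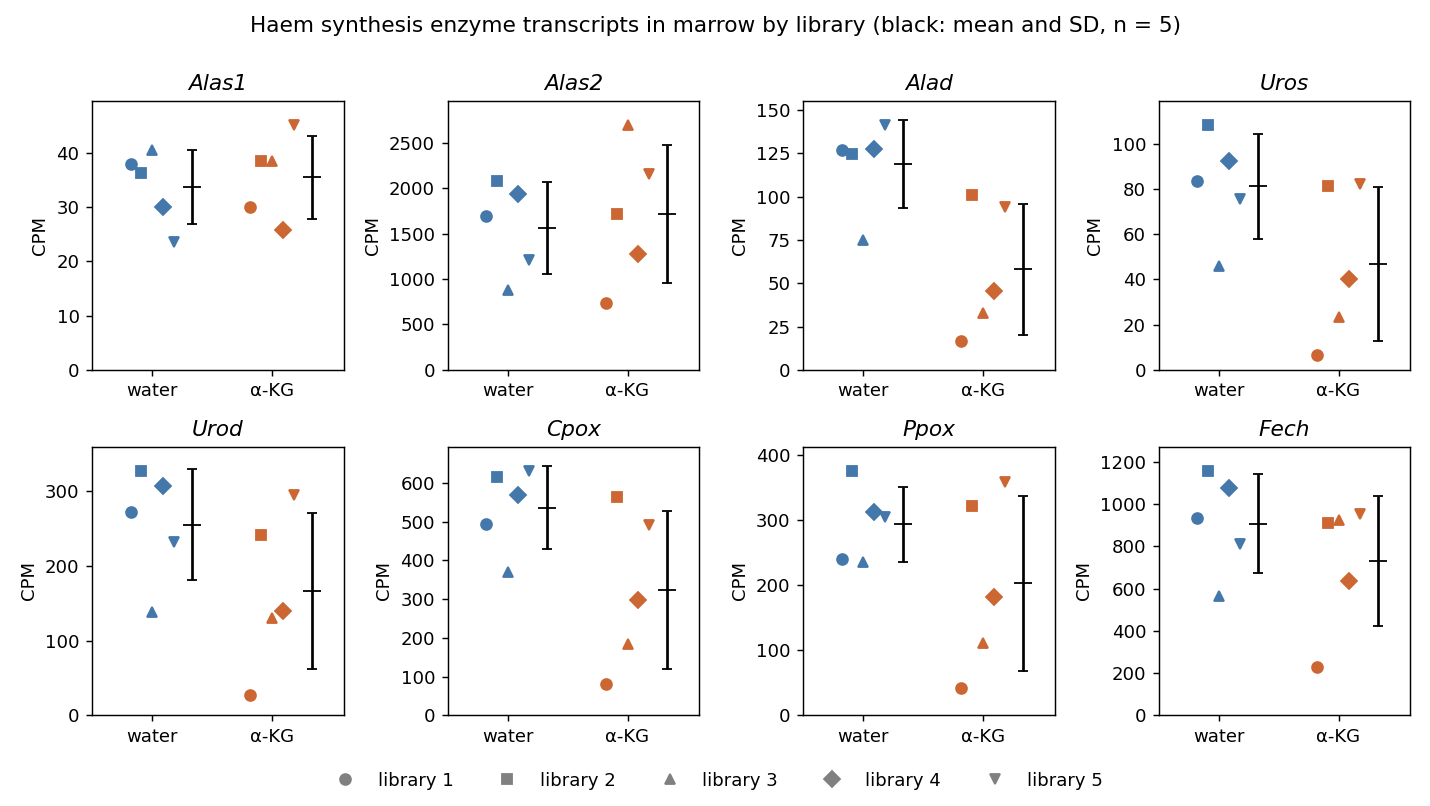
Levels of the 8 transcripts in CPM (vertical axes, each starting at 0) in the water (blue) and α-KG (orange) libraries, with a marker shape per library number, which pairs nothing, and the mean and SD of each group in black. α-KG 1 (circle) is the lowest α-KG library for every gene except Alas1, and α-KG 3 (triangle) is high for Alas2 and low for Alad, Uros, Cpox and Ppox.

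With edgeR, 0 of the 8 members passed the test at an adjusted p under 0.05, where 413 of all 15126 genes tested (2.73%) did, and 1 member, Alad, had an unadjusted p under 0.05. DESeq2 called 0 of the 8 as well. The median log2 fold change of the members was -0.58, with 6 of 8 below 0, against 0.02 over all genes tested. For 0 of the 8 did the CPM of the groups fail to overlap, which occurred for 5.65% of all genes tested. Scaling by library totals alone called 2 members lower, where 6.89% of all genes tested were called lower. These were Alad at -1.34 (edgeR, adjusted p = 0.00625) and Cpox at -1.03 (adjusted p = 0.0266), and this scaling moved the median of all genes to -0.22. With the protein-coding share as a covariate, the 6 members below 0 were at -1.08 to -0.32, and 0 were called. One library weighed on several values: without α-KG 1, the log2 fold change was -0.52 for Uros, -0.35 for Urod, -0.28 for Ppox and -0.088 for Fech. Without α-KG 5 it was -0.92 for Urod and -0.84 for Ppox.

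Levels of the cytosolic enzymes, Cpox and Ppox tracked the erythroid markers from library to library. The mean of the 15 markers on the log2(CPM + 1) scale ran from 8.15, in water 3, to 9.04 in water, and was at 5.60, 8.68, 7.59, 8.04 and 8.75 in α-KG 1 to 5. Over the 10 libraries, Pearson's r with this mean was 0.989 for Uros, 0.988 for Urod, 0.978 for Cpox, 0.972 for Ppox and 0.952 for Alad, with Spearman's rho of 0.806 to 0.964. Without α-KG 1 and α-KG 3, the libraries farthest from the median, r was 0.793 to 0.978 for these 5. Fech was at r = 0.909, Alas2 at 0.572 (rho 0.321) and Alas1 at 0.149 (rho -0.16). These values describe 10 libraries that share one scaling, and the markers and members were measured in the same RNA. Between the members themselves, r was 0.921 to 0.988 for the 10 pairs among Alad, Uros, Urod, Cpox and Ppox, and still 0.834 to 0.968 without α-KG 1. Alas1 was at 0.09 to 0.23 with these 5, Alas2 at 0.389 to 0.682 and Fech at 0.785 to 0.951.

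**Figure D2:**
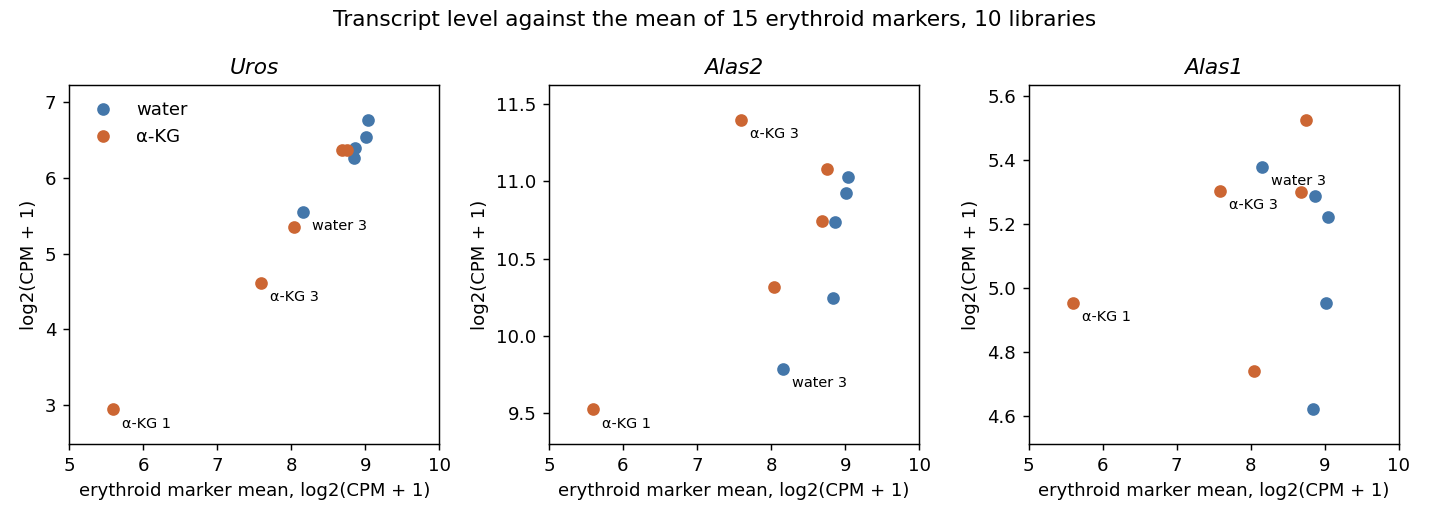
Level of Uros, Alas2 and Alas1 (vertical axes, log2(CPM + 1), not starting at 0) against the mean of 15 erythroid markers on the same scale, with 1 point per library. Uros lies along 1 line from α-KG 1 to the water libraries, Alas2 does not because α-KG 3 is at the top, and Alas1 shows no such order.

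With the erythroid marker mean of each library as a covariate, the log2 fold changes of all 8 members were higher. Those of Uros, Cpox and Ppox came near 0, and those of Alas1 and Alas2 moved away from 0. Uros was then at 0.018 ± 0.13 SE, Cpox at -0.09 ± 0.16, Ppox at 0.11 ± 0.17, Urod at 0.20 ± 0.14 and Fech at 0.28 ± 0.21 on the log2 scale (edgeR, adjusted p = 0.536 to 0.969). Alad kept the lowest value, at -0.41 ± 0.17 (adjusted p = 0.302, unadjusted p = 0.0277). Alas2 turned to the highest, at 0.61 ± 0.31 (adjusted p = 0.395, unadjusted p = 0.0677), and Alas1 was at 0.16 ± 0.19 (adjusted p = 0.744). The median over the 8 members was 0.13, beside 0.03 over all genes tested. The covariate itself was lower in 3 of the 5 α-KG libraries than in all water libraries, so the fit divides between covariate and treatment what they share.

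**Figure D3:**
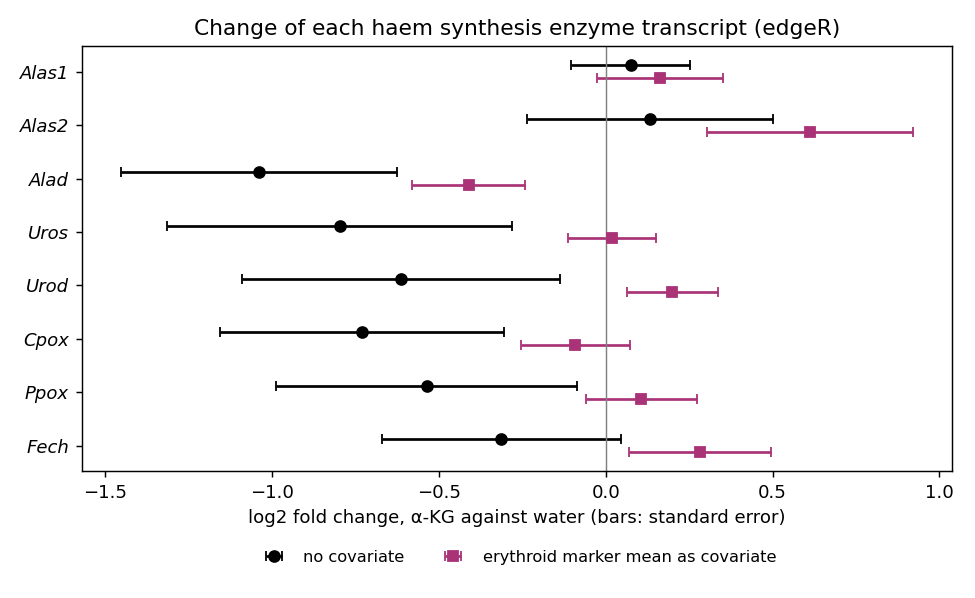
Log2 fold change of each member, α-KG against water, with its standard error, without a covariate (black circles) and with the erythroid marker mean as a covariate (purple squares). The 6 values below 0 move towards 0 or past it, and Alas2 moves from 0.13 to 0.61.

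Alas2 stood higher relative to several other enzymes in each α-KG library than in any water library. Expressed per kilobase of transcript, the Alas2 level was 4.57, 4.65, 4.66, 4.62 and 3.81 times that of Urod in water 1 to 5 and 19.9, 5.18, 15.03, 6.66 and 5.34 times in α-KG 1 to 5. The water libraries lay close together, and the α-KG libraries were all above them, α-KG 1 and α-KG 3 most of all. Relative to Fech, Alas2 was at 5.87, 5.81, 5.06, 5.83 and 4.82 times in water and at 10.3, 6.08, 9.38, 6.45 and 7.29 times in α-KG. Relative to Uros the range was 13.9 to 18.2 in water and 18.2 to 99.4 in α-KG, and relative to Alad 5.26 to 10.2 in water and 10.4 to 50.4 in α-KG. For both of these, α-KG 2 exceeded the highest water library only slightly, with 18.25 against 18.20 for Uros and 10.38 against 10.24 for Alad.

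The groups were thus apart for 4 of the 7 ratios of Alas2 to another member, and they overlapped for Cpox, Ppox and Alas1. Of all 15125 other genes tested, 1.72% had a ratio of this kind that was higher in every α-KG library than in every water library. None of the other 21 pairs among the 8 members were apart. These ratios do not depend on the scaling between libraries, but they were singled out after their values were seen, and so they are given without a test. The Alas2 counts may also include reads of the opposite strand that could not be assigned. Apex2, which shares 311 exonic bases with Alas2 on that strand, was at 12.6 to 30.3 CPM.

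**Figure D4:**
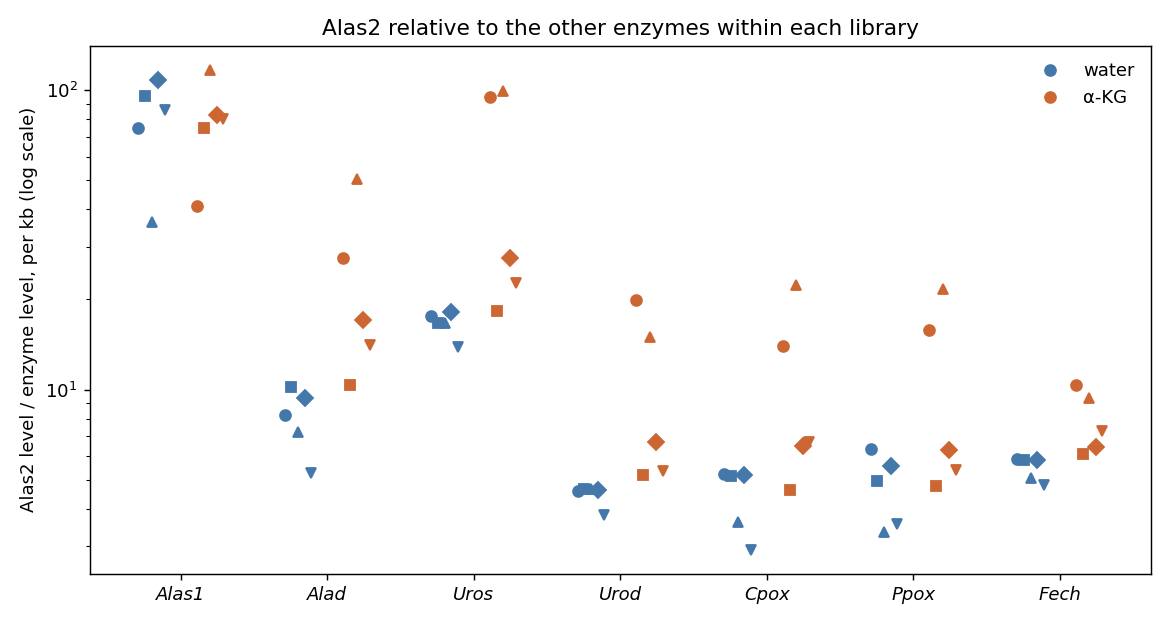
Ratio of the Alas2 level to that of each other enzyme within a library (vertical axis, log scale, per kilobase of transcript), in water (blue) and α-KG (orange), with a marker shape per library number. The groups are apart for Alad, Uros, Urod and Fech and overlap for Alas1, Cpox and Ppox.

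Per kilobase of the longest principal transcript, Alas2 was the most abundant member in both groups and Alas1 the least. Alas2 was at 768 ± 248 CPM per kilobase in the water group and 842 ± 373 in the α-KG group (SD, n = 5), and its lowest library was above the highest library of any other member. Cpox, Urod, Ppox and Fech followed at water means of 173, 172, 161 and 138 CPM per kilobase, and neighbours among these 4 changed places between libraries, with the upper of each pair higher in 5 to 7 of 10. Their α-KG means were 104, 112, 111 and 111 CPM per kilobase. Alad was at 95.4 ± 20.4 in water and 46.5 ± 30.2 in α-KG, below Fech in all 10 libraries, and Uros at 46.0 ± 13.1 and 26.5 ± 19.3, below Alad in all 10. Alas1 was at 9.91 ± 2.02 and 10.5 ± 2.25, below Uros in 9 of 10 libraries, with α-KG 1 the exception. With merged exon lengths in place of the principal transcript, the order within the middle 4 changed and the other ranks did not.

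**Figure D5:**
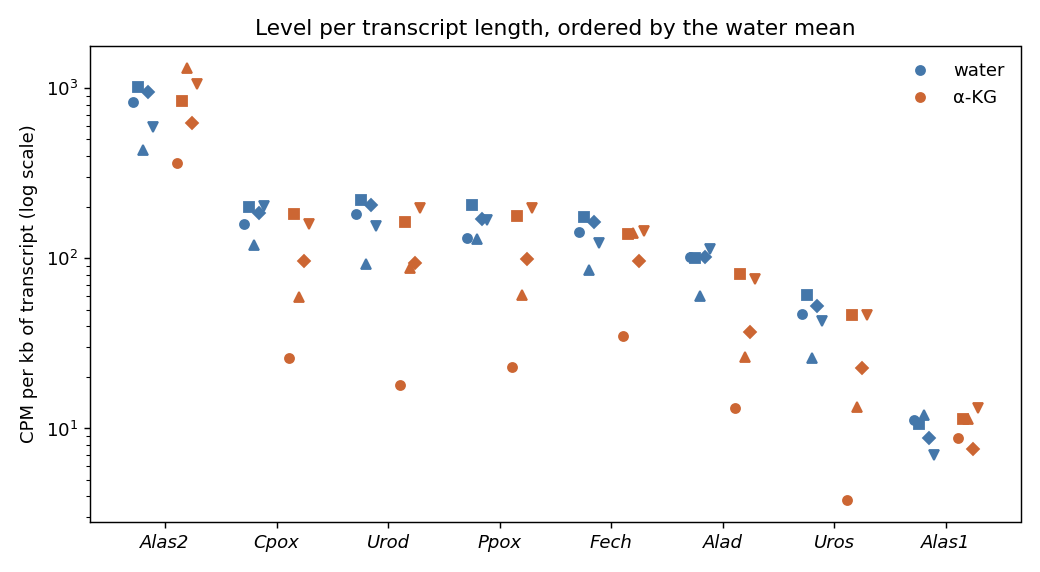
Level per kilobase of transcript of the 8 members (vertical axis, log scale) in each water (blue) and α-KG (orange) library, ordered by the water mean, with a marker shape per library number. Alas2 lies above all others and Alas1 at the foot, with Uros in α-KG 1 below it.

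Of the 54 genes tested around the pathway, 1 was called, where 2.73% of all genes tested were. Of 9 genes for the supply of succinyl-CoA and glycine, 0 were called (edgeR, 0 at an unadjusted p under 0.05), with a median log2 fold change of -0.14. Shmt2, which makes glycine in mitochondria, had the smallest p of them, at -0.70 ± 0.34 SE (adjusted p = 0.203), and Dld, a subunit of α-KG dehydrogenase, was at -0.22 ± 0.13 (adjusted p = 0.272). Of 9 mitochondrial carriers and transporters, 0 were called (edgeR, 3 at an unadjusted p under 0.05), with a median of -0.28. Tmem14c, needed to bring the porphyrin precursor into the mitochondrial matrix, was at -0.81 ± 0.28 (adjusted p = 0.101), and the porphyrin transporter gene Abcb6 at -1.08 ± 0.41 (adjusted p = 0.127).

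Of 15 genes for iron uptake, storage and iron-sulphur assembly, 0 were called (edgeR, 3 at an unadjusted p under 0.05), with a median of -0.32. Slc11a2, the transporter that releases iron from endosomes, was at 41.8 ± 8.17 CPM in the water group and at 24.1 ± 9.17 CPM in the α-KG group (SD, n = 5). Its log2 fold change of -0.80 ± 0.24 SE did not pass (adjusted p = 0.0783). Isca2, an iron-sulphur assembly gene, was at -0.53 ± 0.21 (adjusted p = 0.135). Of 13 genes that control the enzymes, 0 were called (edgeR, 2 at an unadjusted p under 0.05), with a median of -0.45. The transcription factor gene Nrf1 was at -0.45 ± 0.15 (adjusted p = 0.0943), and Lonp1, a mitochondrial protease, at -0.38 ± 0.15 (adjusted p = 0.125). With the erythroid covariate, the medians of these 4 lists were 0.00095, -0.05, -0.05 and -0.02.

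Of 8 genes for haem export, handling and breakdown, 1 was called. Hmox1, whose enzyme opens the haem ring, rose from a mean of 9.93 CPM (SD 1.999) in the 5 water libraries to 38.8 (SD 17.3) in the 5 of α-KG, each of which was above every water library. The log2 fold change was 1.96 ± 0.29 SE (edgeR, adjusted p = 0.0154), and the call was lost without water 1, water 2, water 4 or α-KG 4 and with the protein-coding share as a covariate. It was at 1.65 with the erythroid covariate (adjusted p = 0.0718), and it rose alongside the macrophage markers given above, whose part in it was not tested. The median of this list was -0.09. Globin transcripts, whose proteins take up the haem made in red cells, all had log2 fold changes above 0, at 0.36 to 0.54. Of these 4 transcripts, 0 were called (edgeR, 0 at an unadjusted p under 0.05). Their summed level ran from 24529 to 62975 CPM in water and from 34852 to 117886 CPM in α-KG.

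Among the transcripts most like Alas2 over the 10 libraries were Dcaf12, Ncoa4, Tent5c and Slc25a39, by Pearson's r of log2 CPM among 11186 genes. Their r was 0.987 to 0.993, and 0.961 to 0.978 without α-KG 1 and water 3. Of these, Ncoa4 serves the release of iron from ferritin and Slc25a39 is a mitochondrial carrier. Like Alas2, these 4 had log2 fold changes a little above 0, at 0.14 to 0.28 (edgeR, adjusted p = 0.668 to 0.789). Among those most like Alas1 were Gca, Tbc1d8, Bmx and Tex15, with r of 0.916 to 0.936, and of 0.804 to 0.877 without water 5 and α-KG 4. Both sets were picked for their r from all of those genes, which is therefore high by choice.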

How the data were processed

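RNA from mouse marrow cells, extracted on columns with DNase, was depleted of ribosomal RNA and sequenced on an Illumina NovaSeq instrument, per the labels' protocols. The deposited table holds estimated counts (expected counts) per gene, of which 10.3% are not whole. Per the submitters' processing notes, bcl2fastq and DRAGEN were used with build GRCm38. The sources used here do not give the quantifier, annotation release or strandedness. Values were not whole in 10 libraries for Alas2, 9 for Ppox, 4 for Alas1, 3 for Cpox and 0 for the other members. Reads shared with other loci or with genes on the opposite strand (Apex2 for Alas2, B4galt3 for Ppox, at 23.2 to 37.3 CPM) may therefore be split between them.

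Counts were rounded, filtered with filterByExpr (minimum count 10, minimum total 15) and tested over all 15126 genes kept, by edgeR 4.0.16 under R 4.3.3 (glmQLFit and glmQLFTest, TMM scaling, robust, two-sided, Benjamini-Hochberg adjustment, threshold 0.05). Standard errors are the absolute log2 fold change over the square root of F, and 95% intervals use the t quantile of the same fit. The procedure was tested on simulated data, but its power to find changes of the size seen in the members is not given here. Xist (258 to 785 CPM) and the Y-linked Ddx3y (13.5 to 28.0 CPM) were found in every library, so the sex behind the X-linked Alas2 is not known. Lengths and positions came from GENCODE M21, start windows from RefSeq GRCm38.p6.

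Alternatives used DESeq2 1.42.0, limma 3.58.1 (voom), other scalings and filters, covariates, and each library left out. The members, gene lists, tests and alternatives were chosen with earlier results of these data known. The rule for named genes took the members, the called genes of each list or else the pair with the smallest p, and the 5 genes most correlated with Alas2 and with Alas1, of which 4 each are reported here.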

Additional observations from a re-analysis of the deposited data

Results flagged for a closer look

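In 2 of 20 groups of 5 values examined (each member's CPM, the erythroid marker mean and the log2 ratio of Alas2 to Alas1, per group), 1 library stood far from the other 4 by Dixon's ratio, and chance gives about 1 such group in 20. Both were water 3, with Alad at 75.1 CPM, where the other water libraries were at 125 to 141 CPM, and an erythroid marker mean of 8.15 on the log2(CPM + 1) scale. Without water 3, the log2 fold change of Alad was -1.17 (edgeR, adjusted p = 0.111).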

How the results depend on the processing

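No paired analysis was possible because no number in the labels is shared by a water and a treated library. Members called stayed at 0 in all alternatives except library totals alone, where 2 were called. Elsewhere Alad came nearest the threshold, with an adjusted p of 0.0504 without α-KG 2 (edgeR) and of 0.0621 with DESeq2. Genes called over all genes, 413 by the reported fit, numbered 1159 with library totals alone (117 higher and 1042 lower), 1657 with DESeq2, 273 with limma voom, 41 with the erythroid covariate and 0 with the protein-coding share as covariate, where 3457 were at an unadjusted p under 0.05. Leaving out 1 library gave from 0 calls, when it was water 1, 2 or 4 or α-KG 4 (3232 to 3672 genes at an unadjusted p under 0.05), to 2683, when it was α-KG 2. Dropping α-KG 3, 1 or 5 gave 37, 139 and 149 calls, and dropping water 5 or 3 gave 72 and 632. Of the 54 pathway list genes, 13 were called with library totals alone, 5 with DESeq2 and 0 with either covariate. With a library left out the number ran from 0, without the same 4 libraries, to 9, without α-KG 2.

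Alad and Cpox were below 0 in all 20 alternatives. Uros (0.018), Urod (0.20), Ppox (0.11) and Fech (0.28) were above 0 with the erythroid covariate only. Alas1 (-0.22) and Alas2 (-0.17) fell below 0 with library totals alone. Leaving out a library moved Alas1 between -0.027 and 0.17 and Alas2 between -0.088 and 0.32, with Alas2 at -0.014 without water 3 and Alas1 at -0.025 without α-KG 5. The log2 ratio of Alas2 to Alas1 differed by -0.01 between groups and by -0.27 to 0.21 with a library left out, never past the threshold. Why these values moved was not tested. Fech without α-KG 1 was at -0.088, its value nearest 0. Members held 172 to 55027 counts in a library, so counting error was small beside the spread between libraries.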
